A study of Homo sapiens with 8 samples.

Results

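The interferon-stimulated effector genes examined here are 43 named genes whose transcription is turned on by interferons, and they were chosen by name, with no measured value in the rule. All 43 had at least 1 probe on the array, with 52 probes in all, of 20249 genes with a probe in the whole series. The mRNA was measured with 8 one-colour arrays in KYSE850 cells, an established line from a human esophageal squamous cell carcinoma (ESCC). Cells given a control siRNA supplied 4 arrays, and cells given an siRNA against KHSRP supplied the other 4. KHSRP is an RNA-binding protein that takes part in mRNA decay and in microRNA maturation, and the study asked which transcripts depend on it. According to the methods, siRNAs were used at a final concentration of 10 nM, and 3 siRNAs against KHSRP were used in the study, but the labels do not say which of them each array received. The cells are 1 line, the labels name no interferon treatment, and the labels do not say that the arrays of a group came from separate cultures. The p-values below therefore measure only the spread between these samples, which may be technical.

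Interferons are secreted proteins that cells release when they sense foreign nucleic acid. Type I and type III interferons bind separate receptors and activate the kinases JAK1 and TYK2, which phosphorylate STAT proteins. STAT2 and IRF9 are parts of ISGF3, a transcription factor complex that binds the interferon-stimulated response element in the promoters of its target genes. The targets act on many steps of viral growth, such as entry, translation and budding, and some of them feed back on the pathway. Epithelial cells such as those of the esophagus respond to both interferon types.

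The core of the response element was looked for in promoter windows of 300 bases (250 before and 50 after a RefSeq transcription start, assembly GRCh38.p14). The letters searched were GAAANNGAAA, on either strand. They were present in 1255 of 35116 windows (3.57%) and in 28 of 50 windows of members (56.0%). By gene, 24 of the 36 members in the promoter table (66.7%) held the letters in a window, against 4.38% of all genes in the table. USP18, IRF7, IFITM2, OASL, IFIT2, TRIM22 and MX2 were not in the table. The 9 stretches below, each of 60 bases that end before a transcription start, are examples that hold these letters, the core of the element that ISGF3 binds. They are written 5′ to 3′ on the strand of the gene, and each match is in capitals (overlapping matches run together).
ISG15, chr1:1013362-1013421, plus strand: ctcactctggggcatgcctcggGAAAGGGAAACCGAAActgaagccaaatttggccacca
IFI44L, chr1:78620259-78620318, plus strand: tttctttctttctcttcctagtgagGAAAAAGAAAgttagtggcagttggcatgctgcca
IFI44, chr1:78649729-78649788, plus strand: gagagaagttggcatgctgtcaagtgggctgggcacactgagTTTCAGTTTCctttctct
HERC5, chr4:88456972-88457031, plus strand: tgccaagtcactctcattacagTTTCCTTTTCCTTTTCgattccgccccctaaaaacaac
IFIT3, chr10:89327833-89327892, plus strand: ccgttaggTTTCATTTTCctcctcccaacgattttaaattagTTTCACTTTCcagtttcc
IFIT1, chr10:89392488-89392547, plus strand: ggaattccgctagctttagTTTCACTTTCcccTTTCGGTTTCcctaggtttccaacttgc
IFITM1, chr11:313975-314034, plus strand: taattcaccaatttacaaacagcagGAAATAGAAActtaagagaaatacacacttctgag
ISG20, chr15:88638922-88638981, plus strand: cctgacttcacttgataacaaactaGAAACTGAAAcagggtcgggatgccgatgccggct
BST2, chr19:17405723-17405782, minus strand: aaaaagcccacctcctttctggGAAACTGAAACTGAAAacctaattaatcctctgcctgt
The genes shown all had higher levels with KHSRP siRNA. IFIT5, IFITM3, PLSCR1 and CXCL10 had lower levels, also held a match and are not shown. A match is a run of letters and not a measured binding site. Among tested members, the 21 with a match had a median log2 fold change of 0.20 and the 10 with a window but no match one of 0.12. The 10 included STAT2 and HERC6, which were higher with KHSRP siRNA, and IRF9 and SP110, which were lower. Whether a match goes with the change was not tested.

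Levels are log2 signals from which the array's own 75th percentile of non-control probes was subtracted, so that a level of 0 is the signal at that percentile and a step of 1 is a doubling. Levels of different probes are not comparable with each other. A probe was tested when it was well above background on all 4 arrays of at least 1 group, which held for 18761 probes and 12125 genes. Among the members, 36 genes passed, 34 of them with a probe well above background on all 8 arrays. The other 2, HERC6 and CXCL10, met the criterion in 1 group alone. The 7 members that were not tested were MX2, GBP1, SAMD9, TRIM22, XAF1, EPSTI1 and CXCL11. No probe of TRIM22, XAF1 or EPSTI1 was well above background on any array, MX2 and GBP1 were so on 1 array each, and SAMD9 and CXCL11 on 6 of the 8. None met the criterion in either group, and they enter no count of changes.

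KHSRP itself had levels of 6.08 ± 0.24 (SD, n = 4) on the control arrays and 2.71 ± 0.19 (SD, n = 4) on the KHSRP siRNA arrays, a log2 fold change of -3.37 (SE 0.16, limma adjusted p = 5.95e-05). Across arrays, 45.1 to 49.4% of probes were well above background and no spot was saturated. Control arrays 1 and 2 and KHSRP siRNA arrays 1 and 2 were on 1 slide and the other 4 arrays on another. All 12 squamous epithelial markers looked at (among them KRT5, TP63 and DSG3) were well above background on all 8 arrays. Levels of some of them varied widely within groups. KRT5 had 5.84, 4.30, 5.84 and 3.11 on control arrays 1 to 4 and 5.92, 4.46, 2.92 and 5.98 on KHSRP siRNA arrays. TP63 and DSG3 were likewise highest on control arrays 1 and 3 and KHSRP siRNA arrays 1 and 4. CDH1 and EPCAM took other orders. Of 10 fibroblast and endothelial markers, 9 were well above background on no array. Of 10 leukocyte markers, 9 had a probe and only CD14 and CD68 were tested. PTPRC and CD3E, which define leukocytes and T cells, were well above background on 4 and 5 arrays, and 3 markers on none. The summed leukocyte signal was 1.44 to 4.48 times the 75th percentile on the control arrays and 1.56 to 5.70 times on the KHSRP siRNA arrays. For squamous markers it was 237 to 627 and 268 to 723 times. Their part in the results below was not tested, and in bulk RNA fewer cells with a transcript and less of it per cell cannot be told apart.

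The arrays of a group stood apart from each other in the same order for many genes. For 17.3% of all tested probes, control arrays 1 and 3 were the highest of the control group and KHSRP siRNA arrays 1 and 4 the highest of theirs, and for 24.6% the same 4 arrays were the lowest. The replicate numbers were therefore checked as pairs. The numbers of the scanner files and those of the authors' series matrix differ in that KHSRP siRNA arrays 3 and 4 are exchanged. Over 18760 tested probes, deviations from the group mean correlated between same-numbered arrays of the series matrix at r = 0.52, 0.43, 0.83 and 0.84. With the scanner file numbers, r was -0.67 and -0.64 for the last pair of numbers. The series matrix numbers thus mark arrays that deviated together, and results with that number as a block are printed beside those without it. Neither the methods nor the labels state that same-numbered arrays are pairs. The numbering was chosen from these same values, so calls with this block depend on a choice made from the data. The pairs are control 1 with KHSRP 1, control 2 with KHSRP 2, control 3 with KHSRP 4 and control 4 with KHSRP 3, with array numbers as in the scanner files.

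KHSRP siRNA arrays had slightly higher levels for most members, but none passed the test without a block. Of the 36 tested members, 28 were higher and 8 lower with KHSRP siRNA, and their median log2 fold change was 0.21. Over all tested probes 51.8% were higher and the median was 0.012. At an adjusted p under 0.05 (limma, Benjamini-Hochberg over all tested probes), 0 members were called, with STAT2 the lowest at adjusted p = 0.0592, against 5.54% of all tested probes. At an unadjusted p under 0.05 the count was 4 (STAT2, USP18, ISG20 and IFIT2), against 19.6% of all probes. The methods' t-test gave 3 unadjusted and 0 adjusted, and its shares of all tested probes are not given. No member changed by more than 2-fold, and 5 (IFI44L, HERC6, IFIT2, IFIT3 and ISG20) were more than 1.5-fold higher. The share of all tested probes over 1.5-fold is not given. HERC6 is among these 5 and among the 28, but it was tested only through the KHSRP siRNA group, where it was high, and supports nothing in these counts. In 2 members, STAT2 and USP18, all KHSRP siRNA arrays lay above all control arrays, against 6.09% of all probes, and in 0 members did they lie below, against 8.69%.

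With the replicate number of the series matrix as a block, 7 of the 34 members well above background on all 8 arrays rose (20.6%) and 0 fell. The 7 were STAT2, USP18, ISG20, RSAD2, IFI44, IFI44L and BST2. Of all probes well above background on all 8 arrays, 15.2% were called higher and 14.7% lower with this block. HERC6 was called higher too, but it was tested only because it met the background criterion in the KHSRP siRNA group, where it was high, and its call supports nothing. With HERC6 the count was 8 (22.2% of the 36), against 14.8% higher and 15.3% lower of all tested probes. The other members passed in neither direction. Leaving out 1 pair at a time, 3 to 8 members were called, HERC6 included, among them SP110 (lower) and IFIT3 (higher) in 1 fit each. STAT2 and IFI44L were called in each of the 4 such fits, as was HERC6. The calls of USP18, ISG20, RSAD2, IFI44 and BST2 were lost in at least 1 of them. The share of all tested probes called in these fits is not given, so the counts describe the members only. The block numbered as in the scanner files called 0, and its share of all tested probes is not given. With slide as a block STAT2 alone was called (adjusted p = 0.0238), against 6.23% of all probes.

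**Figure D1:**
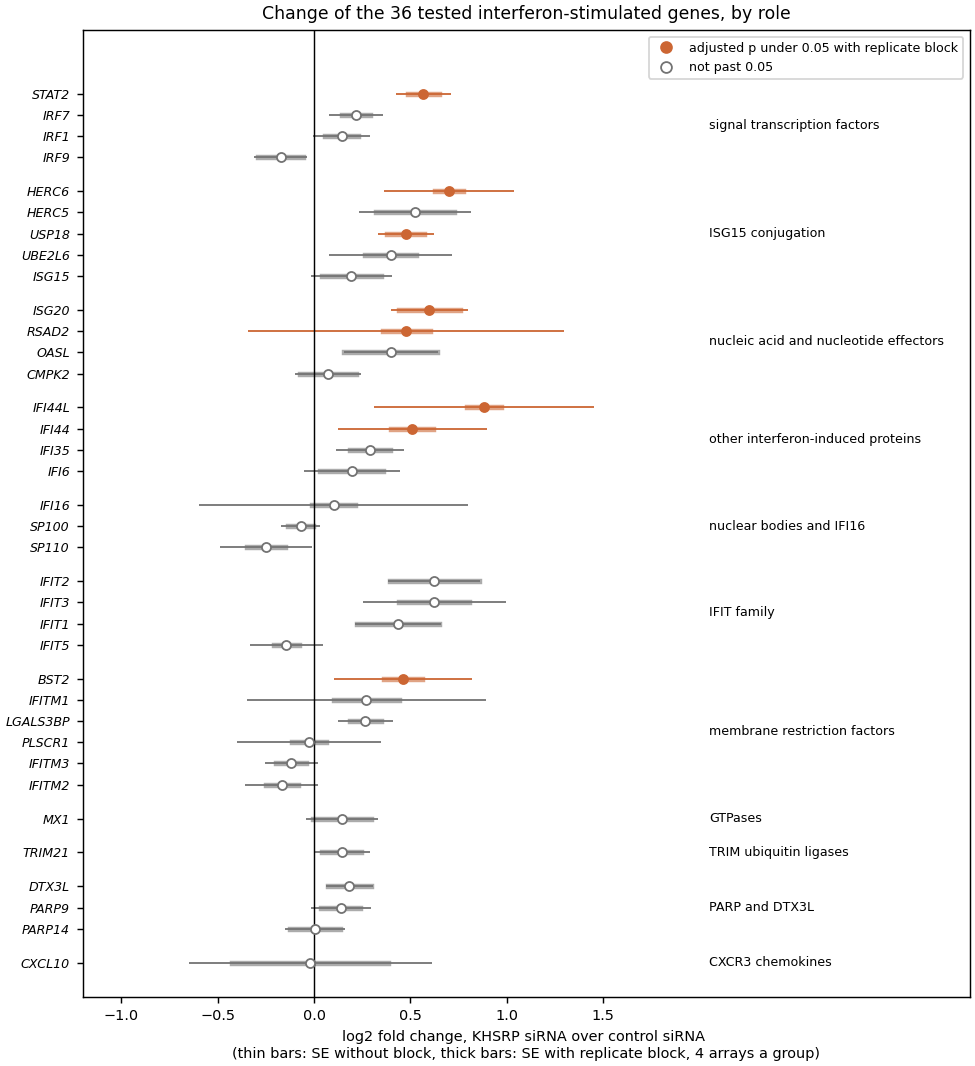
The log2 fold change (KHSRP siRNA over control siRNA, horizontal axis) of each of the 36 tested members, grouped by role, with thin bars for the SE without a block and thick bars for the SE with the series matrix number as a block (4 arrays a group). The 8 filled points passed an adjusted p of 0.05 with the block and lie to the right of 0; HERC6 is one of them and was tested through the KHSRP siRNA group alone.

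Pair by pair, 14 members were higher with KHSRP siRNA in 4 of 4 pairs, 7 in 3, 9 in 2, 4 in 1 and 2 in 0. The shares of all tested probes were 25.8% in 4 of 4 and 25.0% in 0 of 4. The members higher in every pair were STAT2, IRF7, ISG20, IFI44, IFI44L, IFIT2, IFIT3, RSAD2, UBE2L6, USP18, HERC5, HERC6, BST2 and LGALS3BP. Of these, HERC6 was tested through the KHSRP siRNA group alone and supports nothing here. IFIT5 and IFITM2 were lower in every pair. The pairs differed in size. Control 3 with KHSRP 4 had a median difference of 0.48 over members (31 of 36 higher), and control 1 with KHSRP 1 had 0.41 (28 higher). For control 2 with KHSRP 2 the median was 0.14 (23 higher), and for control 4 with KHSRP 3 it was -0.0037 (17 higher). Over all tested probes these 4 medians lay between -0.01 and 0.02, where the scaling of each array holds them near 0. Within each slide the median over members was 0.27 and 0.22, and the groups, 2 arrays against 2, did not overlap for 42.0% of all tested probes on slide 1 and 31.6% on slide 2.

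Among the 4 member transcription factors, STAT2 differed most. Its levels were 2.72, 2.61, 3.02 and 3.06 on control arrays 1 to 4 and 3.36, 3.29, 3.39 and 3.63 on KHSRP siRNA arrays 1 to 4. Every KHSRP siRNA array was above every control array, and the difference on the log2 scale was 0.57 (SE 0.14, limma adjusted p = 0.0592 without and 0.00699 with the block). IRF7, which amplifies interferon production, differed by 0.22 (adjusted p = 0.465) and IRF1, which is itself induced by interferon, by 0.14 (0.694). IRF9, which gives ISGF3 its DNA sequence preference, had a log2 fold change of -0.17 (0.584). The estimates for the parts of ISGF3 that are members thus had opposite signs, but IRF9 did not pass with or without the block.

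The 5 genes of ISG15 conjugation were all higher, with log2 fold changes from 0.19 to 0.70. The value of 0.70 is that of HERC6, which was tested through the KHSRP siRNA group alone. ISG15 is a ubiquitin-like protein, UBE2L6 its conjugating enzyme, HERC5 its main ligase, HERC6 a relative of HERC5, and USP18 removes ISG15 and also restrains the type I interferon receptor. ISG15 gave one of the strongest signals of the list, with levels of 6.77, 6.85, 6.24 and 7.27 on control arrays 1 to 4 and 7.16, 6.84, 7.03 and 6.87 on KHSRP siRNA arrays 1 to 4. The groups overlapped widely, and its difference of 0.19 did not pass (adjusted p = 0.707, with the block 0.384).

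USP18 had levels of 0.20, 0.23, -0.13 and 0.48 on control arrays 1 to 4 and 0.77, 0.71, 0.66 and 0.54 on KHSRP siRNA arrays 1 to 4. The groups did not overlap, although control array 4 and KHSRP siRNA array 4 lay close, and the difference was 0.48 (SE 0.15, adjusted p = 0.104 without and 0.0182 with the block). HERC6 was dim, and only 2 control arrays and all 4 KHSRP siRNA arrays were well above background. Its levels were -2.42, -3.74, -2.92 and -3.26 on control arrays 1 to 4 and -1.71, -2.90, -2.69 and -2.25 on KHSRP siRNA arrays 1 to 4. The groups overlapped, but all 4 pairs differed by between 0.57 and 0.84, and the block lowered the SE from 0.34 to 0.07 (log2 fold change 0.70, adjusted p = 0.304 without and 0.00295 with the block). With normexp background correction the log2 fold change was 0.20, and under the filter that needed all 8 arrays HERC6 was not tested. The second HERC6 probe was not well above background on any array.

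HERC5 had levels of 0.85, 0.48, 0.82 and 0.85 on control arrays 1 to 4 and 1.82, 0.59, 0.88 and 1.81 on KHSRP siRNA arrays 1 to 4. KHSRP siRNA arrays 1 and 4 were about 1 above the others, array 2 lay within the control range and array 3 just above it. The difference of 0.52 did not pass (adjusted p = 0.388, with the block 0.105). UBE2L6 differed by 0.40 (adjusted p = 0.586).

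Effectors that act on nucleic acids or nucleotides were higher in all 4 tested genes. ISG20 is an exonuclease that degrades RNA. Its levels were 3.92, 3.61, 3.74 and 4.15 on control arrays 1 to 4 and 4.64, 4.03, 4.31 and 4.83 on KHSRP siRNA arrays 1 to 4. Only KHSRP siRNA array 2 reached down into the control range, and the difference was 0.60 (SE 0.20, adjusted p = 0.134 without and 0.0385 with the block).

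RSAD2 (viperin), which makes a chain-terminating nucleotide, spread the most within groups. Its levels were 1.54, -0.20, 1.71 and -0.70 on control arrays 1 to 4 and 2.23, 0.12, -0.56 and 2.47 on KHSRP siRNA arrays 1 to 4. In each group a high and a low pair of arrays stood about 2 apart, further than the groups did from each other. The difference was 0.48 (SE 0.82, adjusted p = 0.841), and with the block the SE was 0.12 (adjusted p = 0.0351). Single arrays decided its size without a block, from 0.0086 without KHSRP siRNA array 4 to 1.02 without KHSRP siRNA array 3. CMPK2, the neighbour of RSAD2 on chromosome 2, differed by 0.07 and OASL, an activator of the RNA sensor RIG-I, by 0.40, and neither passed with or without the block.

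Among the IFIT genes, which lie in a cluster on chromosome 10 and encode proteins that bind foreign RNA or each other, IFIT1, IFIT2 and IFIT3 were higher by 0.44, 0.62 and 0.62, and IFIT5 had a log2 fold change of -0.14. IFIT2 had levels of 3.23, 3.03, 2.79 and 3.53 on control arrays 1 to 4 and 3.99, 3.26, 3.61 and 4.22 on KHSRP siRNA arrays 1 to 4. The groups overlapped through control array 4 and KHSRP siRNA array 2 (SE 0.24, adjusted p = 0.186 without and 0.0936 with the block), and the second IFIT2 probe gave 0.50. IFIT3 had levels of 1.81, 1.04, 1.81 and 1.44 on control arrays 1 to 4 and 2.72, 1.47, 1.498 and 2.90 on KHSRP siRNA arrays 1 to 4. KHSRP siRNA arrays 1 and 4 lay above every control array, and arrays 2 and 3 lay within the control range. The IFIT3 adjusted p was 0.420 without and 0.0505 with the block, and that of IFIT1 was 0.342 and 0.177.

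IFI44 and IFI44L are neighbouring genes on chromosome 1 that encode related cytoplasmic proteins. Over all 8 arrays IFI44L had the largest fold change of the list, but with normexp its log2 fold change was 0.35, below the 0.57 of IFIT2. Its levels were -1.54, -2.78, -1.31 and -3.09 on control arrays 1 to 4 and -0.43, -2.09, -2.25 and -0.42 on KHSRP siRNA arrays 1 to 4. Control arrays 1 and 3 were above KHSRP siRNA arrays 2 and 3, so the groups overlapped, while each pair differed by between 0.69 and 1.12. On the log2 scale the difference was 0.88 (SE 0.57, adjusted p = 0.467), and with the block the SE was 0.09 (adjusted p = 0.00289).

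IFI44 had levels of 1.72, 0.66, 1.66 and 0.92 on control arrays 1 to 4 and 2.27, 1.13, 1.13 and 2.47 on KHSRP siRNA arrays 1 to 4. The arrays took the same order of high and low as for IFI44L. The difference was 0.51 (SE 0.39, adjusted p = 0.554 without and 0.0205 with the block). IFI35 and IFI6, an antiviral protein of the endoplasmic reticulum, differed by 0.29 and 0.20 and did not pass.

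Membrane restriction factors, and LGALS3BP, which was only grouped with them, had differences of both signs. BST2 (tetherin), which holds budding virus at the cell surface, had levels of 0.64, -0.57, 0.35 and 0.07 on control arrays 1 to 4 and 1.07, -0.26, 0.41 and 1.12 on KHSRP siRNA arrays 1 to 4. Control array 2 and KHSRP siRNA array 2 were the lowest of their groups, and the groups overlapped. The difference was 0.46 (SE 0.36, adjusted p = 0.567 without and 0.0195 with the block), and its second probe gave 0.43. The IFITM proteins block the entry of enveloped viruses. IFITM3 had levels of 6.82, 6.81, 6.40 and 6.84 on control arrays 1 to 4 and 6.75, 6.64, 6.54 and 6.45 on KHSRP siRNA arrays 1 to 4. Its log2 fold change was -0.12, adjusted p = 0.735. IFITM2 had a log2 fold change of -0.17, IFITM1 one of 0.27, LGALS3BP 0.27 and PLSCR1 -0.03, and none passed with or without the block. IFITM1, IFITM2 and IFITM3 are similar in sequence, and whether their probes tell them apart was not tested.

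**Figure D2:**
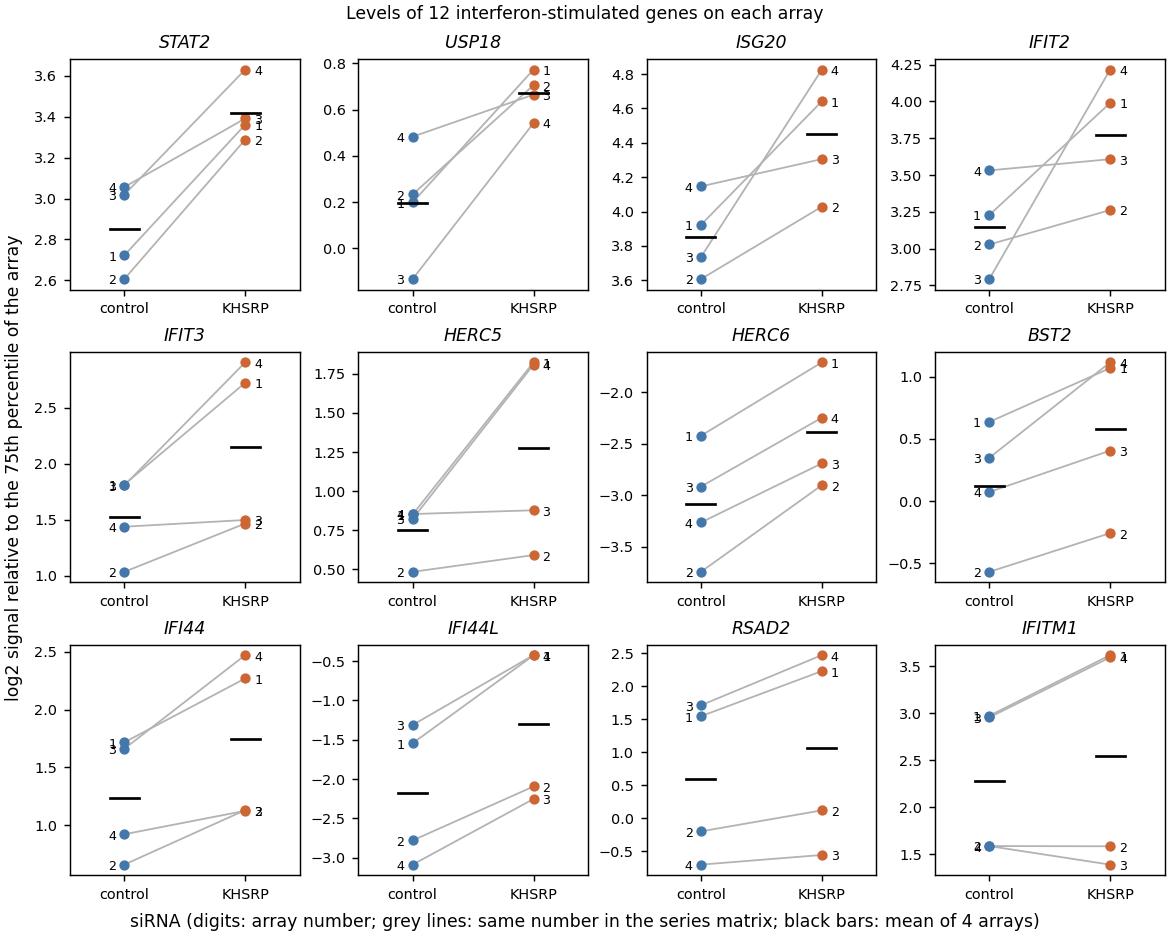
Levels (vertical axis, log2 signal relative to the 75th percentile of the array, each panel with its own range) of 12 members on each of the 4 control arrays and 4 KHSRP siRNA arrays; digits are array numbers, grey lines join arrays of the same series matrix number and black bars are means of 4 arrays. The STAT2 and USP18 groups do not overlap, whereas in IFI44L, RSAD2 and IFITM1 arrays 1 and 3 (control) and 1 and 4 (KHSRP siRNA) lie far above the others of their group.

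The remaining members differed little between groups. PARP9, DTX3L and PARP14, which act together in ADP-ribosylation after interferon, had log2 fold changes of 0.14, 0.18 and 0.01. TRIM21, a cytosolic antibody receptor and ubiquitin ligase, had 0.14, and the antiviral GTPase MX1 0.15. SP100 and SP110, proteins of nuclear bodies, had -0.07 and -0.25, but 1 of the other SP100 probes gave 0.62. IFI16, a sensor of DNA, had 0.10 and CXCL10, a chemokine that attracts T cells through CXCR3, -0.02. None of these passed without a block (adjusted p from 0.489 to 0.993) or with it (from 0.107 to 0.980). The sign depended on the scaling or background correction for PARP14, CMPK2 and CXCL10.

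Members also varied between arrays of 1 group, and did so in a few recurring orders. The median SD within groups was 0.31 over members and 0.26 over all tested probes. RSAD2, IFI16, CXCL10, IFITM1, IFI44L, IFI44 and PLSCR1 (7 of 36) were above the 90th percentile of all probes, 0.61. Taking each array's deviations from the group mean, 32 of 36 members were above the mean on KHSRP siRNA array 1 (median deviation 0.19), 25 on array 4 (0.25), 9 on array 2 (-0.26) and 6 on array 3 (-0.17). Among control arrays, 25 members were above the mean on array 1 (0.09), 14 on array 2 (-0.10), 18 on array 3 (-0.01) and 19 on array 4 (0.07). The SD of these 8 medians was 0.18 for members and 0.03 for all tested probes. These SDs are not on equal terms, because scaling each array to its own percentile holds the median over all probes near 0. The median over all probes is also taken over many more values.

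For 12 of the 36 members (33.3%), control arrays 1 and 3 and KHSRP siRNA arrays 1 and 4 were the highest of their groups, an order seen in 17.3% of all tested probes. These 12 were BST2, HERC6, IFI16, IFI35, IFI44, IFI44L, IFIT3, IFITM1, IRF7, PLSCR1, RSAD2 and SP110. IFITM1 is an example, with levels of 2.97, 1.59, 2.96 and 1.59 on control arrays 1 to 4 and 3.62, 1.58, 1.39 and 3.60 on KHSRP siRNA arrays 1 to 4. Its second probe gave the same order. IFI16, with 0.14, -1.77, 0.62 and -1.35 on control arrays and -0.01, -1.46, -1.45 and 0.96 on KHSRP siRNA arrays, was another. In both genes the arrays of a group differed by more than 1, while the group means differed by 0.27 and 0.10. Of the 9 members whose range exceeded 1 in both groups, 8 took this order, against 41.7% of the 2433 probes with such a range. HERC6 is among the 12 and among these 8. It was tested only through the KHSRP siRNA group, where it was high, and supports nothing in either count.

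In 8 other members (22.2%) control arrays 1 and 4 and KHSRP siRNA arrays 1 and 4 were the highest, an order found in 0.85% of all tested probes. They were CXCL10, HERC5, IFIT1, IFIT2, ISG20, OASL, PARP14 and TRIM21. CXCL10 was tested through the KHSRP siRNA group alone and supports nothing in this count. A further 4 (IFI6, IFITM2, IRF9 and ISG15) were highest on control arrays 2 and 4 and KHSRP siRNA arrays 1 and 3, against 2.83% of probes. Only IFIT5 and UBE2L6 were highest on control arrays 2 and 4 and KHSRP siRNA arrays 2 and 3, the commonest order over all probes (24.6%). The genes are not independent of each other in these counts, and the orders are a description of 8 arrays.

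**Figure D3:**
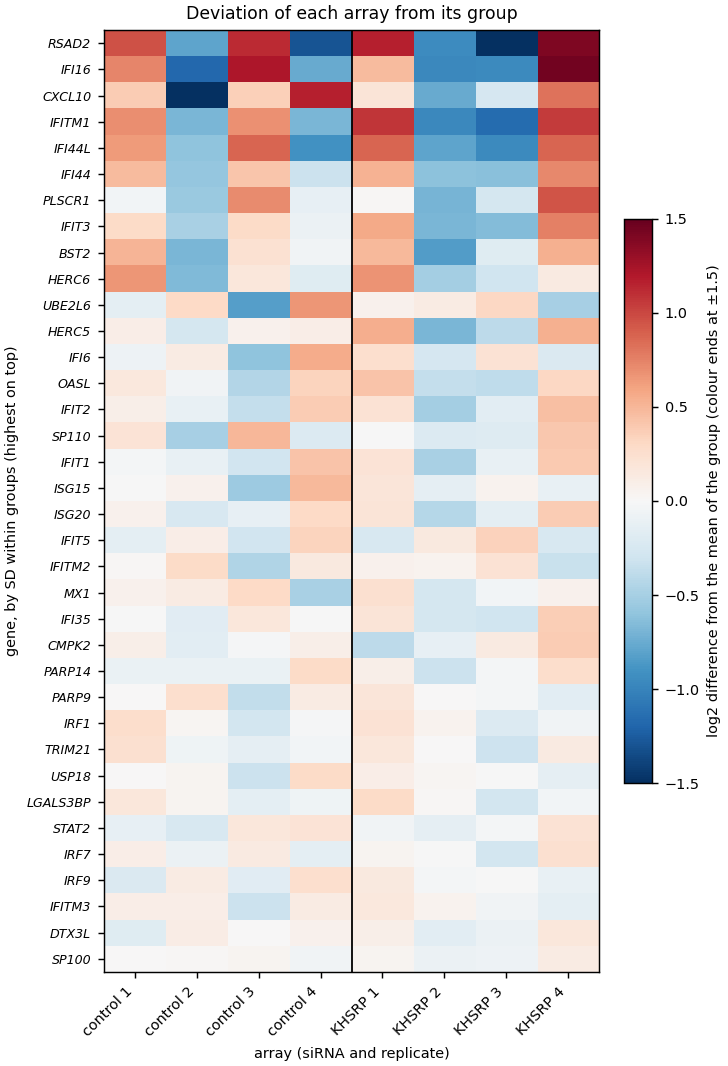
Deviation of each array from its group mean (colour, log2 units, ends at ±1.5) for the 36 tested members (rows, ordered by SD within groups) on the 8 arrays (columns). RSAD2, IFI16, IFITM1, IFI44L and IFI44 are high on control arrays 1 and 3 and KHSRP siRNA arrays 1 and 4, and most members are below their mean on KHSRP siRNA arrays 2 and 3.

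The rest of the pathway was read from 4 lists that hold no member. Of 21 interferon genes, 17 had a probe, 12 were well above background on no array and 3 were tested, all of them type III interferons. All 3 were higher with KHSRP siRNA and none passed without a block. IFNL1 had levels of -0.50, -1.71, -0.59 and -0.93 on control arrays 1 to 4 and 0.88, -0.76, -0.86 and 0.88 on KHSRP siRNA arrays 1 to 4. Arrays 1 and 4 of the KHSRP siRNA group were again the high ones (difference 0.97, SE 0.48, adjusted p = 0.321 without and 0.0326 with the block). IFNL3 differed by 0.70 (SE 0.22, adjusted p = 0.115 without and 0.0334 with the block), and its levels lay between -3.80 and -2.39. Only 2 control arrays but all 4 KHSRP siRNA arrays were well above background for IFNL3, so that it was tested through the group where it was high and its call supports nothing. The calls of both genes rested on few pairs: leaving out pair 1, 2 or 3 the adjusted p lay between 0.0770 and 0.107 for IFNL1 and between 0.0917 and 0.111 for IFNL3, and only without pair 4 were they called (0.0139 and 0.0110). IFNL2 differed by 0.50 (adjusted p = 0.330, with the block 0.0520), and since IFNL2 and IFNL3 are nearly identical in sequence, their probes may share signal. IFNB1, a type I interferon, passed the background criterion on 4 of 8 arrays and was not tested.

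All 9 receptor chains and kinases were tested, and 6 were higher. With the scaling used here, limma without a block called none. IFNLR1, the specific chain of the type III receptor, differed by 0.39 (SE 0.10, adjusted p = 0.0659), with levels of 0.84 to 0.99 on control arrays and 1.19 to 1.40 on KHSRP siRNA arrays that did not overlap, and it rose with the block (adjusted p = 0.0183). That call was lost without pair 1, 3 or 4 (adjusted p from 0.0514 to 0.0706). Without a block IFNLR1 passed with normexp (limma adjusted p = 0.0452) and in the methods' t-test (adjusted p = 0.0200). It passed in no other alternative without a replicate block, and with median scaling its limma adjusted p was 0.391. TYK2 differed by 0.27 (adjusted p = 0.321). With the block IFNGR1 fell (log2 fold change -0.33, adjusted p = 0.0272), a call lost in each fit without 1 pair (adjusted p from 0.0516 to 0.0895).

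Of 11 signal transducers and brakes, 9 were tested and 7 were higher. At an adjusted p under 0.05 limma called 0 without a block, and 0 also had an unadjusted p under 0.05. SOCS1, a feedback inhibitor of JAK kinases, differed by 0.50 and rose with the block only (limma adjusted p = 0.493 without and 0.00482 with it). It was the only gene of this list to pass with the block. STAT3, which carries the signal of interleukin-6 and related cytokines, differed by 0.20 (adjusted p = 0.531, with the block 0.235).

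Of 56 other interferon-stimulated genes, 43 were tested, with a median log2 fold change of 0.18 and 31 higher. Without a block TRIM14, a mitochondrial adaptor of antiviral signalling, rose by 0.72 (SE 0.14, adjusted p = 0.0200), and TRIM5, which blocks retroviral capsids, fell (log2 fold change -0.52, SE 0.12, adjusted p = 0.0495). The TRIM5 call was lost without any 1 of the 8 arrays, with median scaling (adjusted p = 0.0963), without the filter (0.232) and with the slide as a block (0.0538). With normexp its log2 fold change was -0.08 (0.731), and it was tested through the control group, where it was high (4 control and 3 KHSRP siRNA arrays well above background). The TRIM14 call was lost with median scaling (adjusted p = 0.106), without the filter (0.107) and without control array 1, 2 or 3 or KHSRP siRNA array 1 or 2 (0.0537 to 0.0651). With the block 15 rose and 4 fell (34.9 and 9.30% of the 43), against 14.8 and 15.3% of all tested probes. TRIM5 is 1 of the 4 that fell and, tested through the control group alone, supports nothing in that count. The largest differences among these 19 were OAS2, a sensor of double-stranded RNA, at 1.42 (SE 0.62, adjusted p = 0.250 without and 0.0158 with the block, but 0.0605 without pair 1) and APOBEC3F, a cytidine deaminase, at -1.25 (SE 0.47, 0.176 and 0.00241). The APOBEC3F value came from 1 probe. Averaged over all tested probes of that gene, the difference without a block was only -0.15 (limma adjusted p = 0.897). The fall of APOBEC3F thus depended on the probe chosen.

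**Figure D4:**
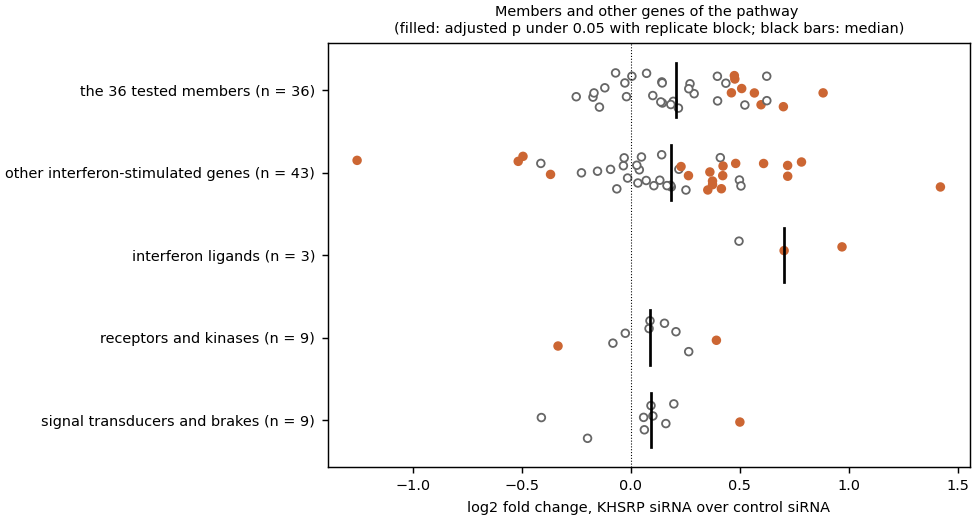
The log2 fold change (horizontal axis, KHSRP siRNA over control siRNA) of each tested gene among the 36 members and 4 other lists of the pathway; filled points passed an adjusted p of 0.05 with the series matrix number as a block and black bars are medians. The medians of the members and of the other interferon-stimulated genes lie at 0.21 and 0.18, and those of receptors and transducers below 0.1.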

How the data were processed

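Total RNA from 8 samples was hybridised to one-colour Agilent whole-genome arrays. The submitters' processing notes name Agilent Feature Extraction 12.6, while the file headers give 11.5.1.1. The authors deposited scanner values as linear fluorescence intensity, background-subtracted and detrended within each array, and a series matrix of log2 values, shifted between arrays and centred per probe on an unstated baseline (array medians from -0.253 to 0.223). The scanner flags, with no unit (other), marked spots well above background, saturated or outlying. Matrix columns were matched to scanner files by the correlation of their values, and KHSRP siRNA arrays 3 and 4 matched each other's files. Both belong to the same group, so that no comparison between groups without a block depends on it.

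Control spots and outlier spots (265 to 346 per array) were left out. The remaining log2 signals were averaged over the spots of a probe, and the 75th percentile of non-control probes on that array was subtracted. The precision is set by the number of arrays, 4 per group. A probe counted as well above background where at least 0.5 of its spots did. Of 42405 non-control probes, 27241 (64.2%) received a gene symbol through RefSeq accessions (GRCh38.p14), and 1061 with such an accession did not. The tested probe with the highest mean level stood for a gene. Differences between groups were tested two-sided by the lmFit and eBayes functions of limma 3.58.1 under R 4.3.3, p-values were adjusted by the Benjamini-Hochberg procedure across every tested probe, and the script was tested on simulated data. Tables and figures were made with Python 3.11.15. Alternatives covered scaling, background correction, filter, blocks, array weights, the methods' t-test, and leaving out arrays. Values of single arrays are given for members called with or without a replicate block, the 8 with the largest change and the 2 with the strongest signal, with IFITM1 and IFI16 added after their values were seen. In the other lists, called genes or the 2 lowest p-values were named, and IFNL2, IFNB1, IFNGR1, OAS2 and APOBEC3F were added afterwards. The members, lists and tests were chosen with earlier results of these data known. Another gene of the pathway is not reported here.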

Additional observations from a re-analysis of the deposited data

Results flagged for a closer look

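In 3 of 72 sets of 4 arrays (36 members in 2 groups), a single array lay far from the other 3 by Dixon's test, where chance gives about 1 in 20. IFITM3 on control array 3 was at 6.40, below the next array at 6.81. HERC5 on control array 2 was at 0.48, with the next at 0.82. PARP14 on control array 4 was at 0.16, above the next at -0.22. The 3 values came from 3 different arrays, all of the control group.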

How the results depend on the processing

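The median over members was above 0 under every alternative, from 0.13 with median scaling to 0.30 without KHSRP siRNA replicate 3 (all tested probes with median scaling, -0.06). Without a block 0 members were called, and 1 (STAT2) was called with quantile normalization, normexp, the slide block, array weights or an intensity trend with robust variance. Its adjusted p was between 0.0238 and 0.0462 in these 5. The replicate block by series matrix numbers called 8 (HERC6 among them, tested through the KHSRP siRNA group alone), and leaving out 1 pair of it, chosen after seeing the data, 3 to 8 (6 without pair 2). Leaving out 1 array without a block called 0 throughout. Members whose groups did not overlap numbered 2, and between 2 and 5 without 1 array: 4 without control siRNA replicate 4, 5 without KHSRP siRNA replicate 2 and 4 without KHSRP siRNA replicate 3. For the fits without 1 pair or 1 array no share of all tested probes is given. The same holds for quantile normalization, normexp, array weights and the intensity trend. The counts of all these fits cannot be set against such a share. Within each slide, where 2 arrays face 2, the count was 11 (30.6% of 36), against 42.0 and 31.6% of all tested probes. Without 1 array and without a block, the log2 fold changes ranged from 0.58 to 1.20 for IFI44L, 0.27 to 0.72 for IFI44, 0.23 to 0.74 for BST2, 0.34 to 0.75 for HERC5 and 0.37 to 0.85 for IFIT3.

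Without a replicate block, IFNLR1 passed with normexp and in the methods' t-test. Genes of the other pathway lists called without a block numbered 2 (TRIM14 and TRIM5) with the scaling used here. The count was 0 with median scaling, without the filter on dim probes and with the block by scanner file numbers, 1 with the 75th percentile of detected probes, with probes well above background on all 8 arrays or with an intensity trend and robust variance, and 24 with the block by series matrix numbers (9 to 19 without 1 of its pairs: 10 without pair 1 and 11 without pair 2). Leaving out 1 array gave 0 to 2. Dropping control array 1, 2 or 3 or KHSRP siRNA array 1 or 2 left 0, and dropping KHSRP siRNA array 3 or 4 left 1. No share of all tested probes is given beside these counts. The 24 include TRIM5 and IFNL3, each tested only through the group where it was high. The SD of the array medians of deviation was 0.18, 0.11 with normexp, and 0.14 to 0.19 without 1 array. The cause of these differences was not tested. Of the 36 members, 27 kept their sign in every alternative run for them other than the fits without a pair (24, or 23 for HERC6) and 9 did not (IFI6, IFI16, IFITM1, MX1, SP100, PARP14, CMPK2, PLSCR1 and CXCL10). Dim probes limit the list: 7 members could not be tested.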
